A study of Mus musculus with 30 samples.

Results

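Muscle fibres contract when calcium leaves the sarcoplasmic reticulum (SR) and relax when it is pumped back, and 10 genes of this cycle were followed in the EDL muscle: ATP2A1, ATP2A2, RYR1, CASQ1, CASQ2, PVALB, SLN, CACNA1S, JPH1 and JPH2. They were picked by name, as the rows of the expression table with these gene symbols, and all 10 were found among its 21073 genes. The extensor digitorum longus (EDL), a fast muscle of the hind limb, was taken from 30 female wild-type SJL/J mice, 5 in each of 6 groups, and each mouse was sampled once; their age is not given in the sources used here. Ctrl mice were not immunized, OVA-immunized mice received ovalbumin in complete Freund's adjuvant (CFA), and EAE-induced mice received the myelin peptide [Ser140]-PLP139-151 in CFA, with no pertussis toxin. Each of the 3 treatments was studied on day 14, the peak of experimental autoimmune encephalomyelitis (EAE), and on day 40, in remission; Ctrl mice share neither adjuvant nor antigen with the others, whereas the OVA-immunized mice share the adjuvant with the EAE-induced mice.

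In a resting fibre, calcium is held in the SR by calsequestrin. An action potential that enters the transverse tubule changes the shape of the voltage sensor, which in skeletal muscle opens the ryanodine receptor of the facing SR membrane by direct contact, and junctophilins hold the membranes together at this site. SERCA pumps then return the calcium at the cost of ATP, small membrane peptides such as sarcolipin slow or uncouple these pumps, and in fast fibres parvalbumin binds calcium in the cytosol and speeds relaxation.

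The smallest of these proteins, the peptides that regulate SERCA, are shown here by their mouse coding sequences because the largest difference among the 10 genes lay in one of them. The sequences are those of the GENCODE M21 transcripts on GRCm38, the assembly also called mm10. The capitals mark the start and stop codons, and the open reading frames hold 31 (SLN), 52 (PLN, phospholamban) and 46 codons (MRLN, myoregulin) before the stop.
SLN: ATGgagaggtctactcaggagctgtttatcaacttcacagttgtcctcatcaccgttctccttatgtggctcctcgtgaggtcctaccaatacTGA
PLN: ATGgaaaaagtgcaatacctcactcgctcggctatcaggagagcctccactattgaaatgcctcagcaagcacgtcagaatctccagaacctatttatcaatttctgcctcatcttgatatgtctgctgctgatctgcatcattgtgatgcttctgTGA
MRLN: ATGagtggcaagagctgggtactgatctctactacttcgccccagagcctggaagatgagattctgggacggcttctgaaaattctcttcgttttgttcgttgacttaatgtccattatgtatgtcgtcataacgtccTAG
SLN lies on chromosome 9 at 53850251 to 53853849. Its exons hold 1318 bases, beside 1041 for PVALB and 15445 for RYR1.

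Expression is given in RPKM, reads scaled to the exon length of the gene and to the mapped reads of the library, so that levels could be compared between genes. In Ctrl mice on day 14, the cytosolic buffer PVALB had the highest mean with 14935 ± 4779.9 RPKM (SD, n = 5), followed by the fast-fibre pump ATP2A1 with 10523 ± 871 and the fast-fibre calsequestrin CASQ1 with 2335 ± 474. Next came the junctophilin JPH2 with 279.8 ± 23.7, the release channel RYR1 with 201 ± 43.4 and its voltage sensor CACNA1S with 131 ± 19.1 RPKM. The slow-fibre and cardiac pump ATP2A2 reached 87.3 ± 19.2, JPH1 74.9 ± 8.45, the slow-fibre and cardiac calsequestrin CASQ2 24.8 ± 3.09 and SLN 4.85 ± 1.72 RPKM. Of neighbours in this order, PVALB and ATP2A1 overlapped between mice, as did JPH2 and RYR1, RYR1 and CACNA1S, and ATP2A2 and JPH1, whereas the other pairs did not. Within every one of these mice, however, JPH2 was above RYR1 and RYR1 above CACNA1S. The slow isoforms were minor throughout, with a median ratio of ATP2A2 to ATP2A1 of 0.849% and of CASQ2 to CASQ1 of 1.11% in these mice. The 10 genes took a median of 5.61% of the estimated reads in Ctrl mice on day 14 and 4.34% in EAE-induced mice, with ATP2A1 as the main contributor (3.12% and 3.09%). All 10 genes exceeded a mean of 3 RPKM in every group, so none entered a test through a single group.

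Depth was estimated from the values of single reads at 17.9M to 31.4M reads a mouse, with a median of 21.4M. Markers fixed for fast fibres summed to 59138 to 89626 RPKM in Ctrl mice on day 14, against 1870.2 to 3150 RPKM for slow-fibre markers, as the label of the muscle implies. All 5 neuronal markers were below 0.1 RPKM in every group mean, so PVALB, which some neurons also express, was measured with neuronal markers at or near 0. Of the 6 cardiac markers, TNNT2 alone exceeded 3 RPKM. Mice correlated with their own group at a median Spearman rho of 0.949 to 0.987 across genes, lowest in replicate 1 of the OVA-immunized and of the Ctrl mice on day 14, and no mouse was left out.

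On day 14, SLN and RYR1 rose and CASQ1 and PVALB fell in EAE-induced mice, against Ctrl as well as against OVA-immunized mice. A gene was called when limma gave a Benjamini-Hochberg adjusted p below 0.05 over all genes tested and a fold change above 1.5. With this rule, 4 of the 10 genes were called in EAE vs. Ctrl, where 26.4% of the 8771 genes tested were called, and the same 4 in EAE vs. OVA, with 20.3% of 8674. The 2 comparisons share the EAE-induced mice, and no test of the 10 genes as a list was made. The median log2 fold change of the 10 genes was 0.15 in EAE vs. Ctrl and 0.04 in EAE vs. OVA, beside 0.11 for all genes tested in both. Relative to this shift of all genes, SLN was at 2.32, RYR1 at 0.57, CASQ1 at -1.35 and PVALB at -1.59 on the log2 scale in EAE vs. Ctrl. In OVA vs. Ctrl none of the 10 was called, with 0.142% of 8471 genes called. There limma gave 0 of the 10 an unadjusted p below 0.05, the lowest being SLN (log2 fold change 0.59, SE 0.30, unadjusted p = 0.0684, adjusted p = 0.561).

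**Figure D1:**
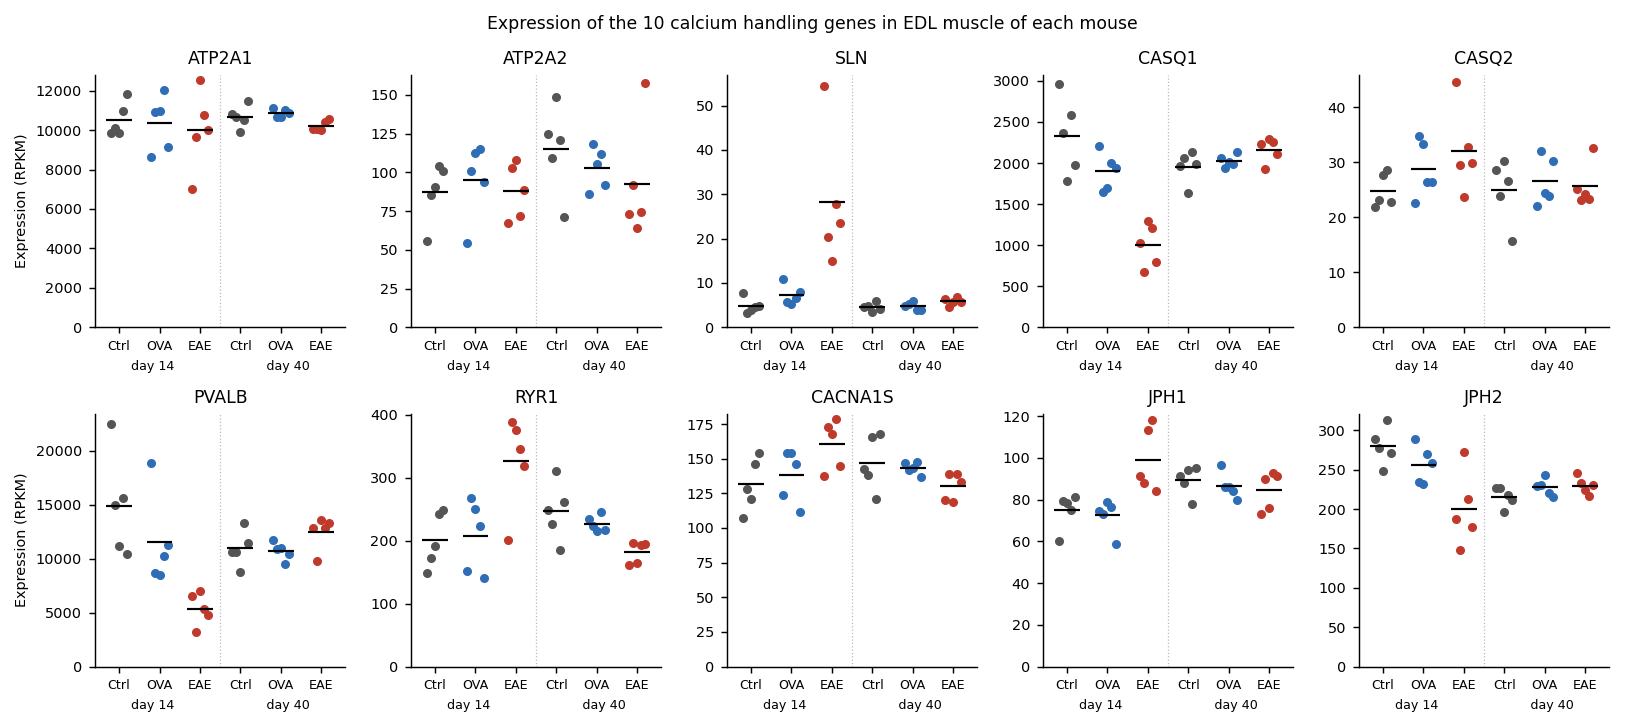
Expression (RPKM, linear axes from 0) of each of the 10 genes in each of the 30 mice, with 1 point a mouse and a line at the mean of each group of 5. On day 14 SLN is higher and CASQ1 and PVALB are lower in all EAE-induced mice than in all Ctrl and OVA-immunized mice, whereas RYR1 overlaps in 1 EAE-induced mouse at 201 RPKM.

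Sarcolipin (SLN), which binds the SERCA pump and lowers the calcium moved per ATP, was scarce in control muscle. On day 14 its level in the 5 Ctrl mice was 7.71, 3.21, 3.91, 4.55 and 4.85 RPKM, and in the OVA-immunized mice 10.9, 5.59, 5.30, 6.52 and 8.05 RPKM. EAE-induced mice had 54.5, 20.4, 14.9, 27.7 and 23.5 RPKM. All 5 thus lay above all control mice, with replicate 1 the highest. The log2 fold change was 2.43 (SE 0.30, adjusted p = 1.85e-05 by limma) against Ctrl, a 5.41-fold difference, and 1.85 (SE 0.30, adjusted p = 0.000223) against OVA. All fold changes here are on the scale of log2(RPKM + 0.1). Groups without overlap were found for 4 of the 10 genes in each comparison (SLN, CASQ1, PVALB and JPH1), where 32.2% (EAE vs. Ctrl) and 26.2% (EAE vs. OVA) of all genes tested did not overlap. In OVA vs. Ctrl no gene of the 10 was free of overlap on day 14 (2.69% of all genes) or day 40 (0.678%). Relative to ATP2A1, the pump it binds in fast fibres, SLN rose from a median ratio of 0.0409% in Ctrl mice to 0.235% in EAE-induced mice (log2 difference 2.53, two-sided exact permutation p = 0.00794, the smallest this design can give, adjusted p = 0.0317 over 24 ratio tests). Against OVA the difference was 1.91 (exact permutation p = 0.0159, adjusted p = 0.0476).

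Calsequestrin 1 (CASQ1), the main calcium store protein of fast fibres, fell. Ctrl mice had 2964, 2371, 1778, 2586 and 1976 RPKM on day 14, OVA-immunized mice 2208, 1652, 1699.8, 2006 and 1941 RPKM, and EAE-induced mice 1029, 678, 1292, 1213 and 792 RPKM. The highest EAE-induced mouse lay below the lowest control mouse. The difference corresponds to a 2.36-fold decrease against Ctrl (log2 fold change -1.24, SE 0.18, adjusted p = 8.76e-05 by limma) and a 1.95-fold decrease against OVA (-0.96, SE 0.19, adjusted p = 0.000855). CASQ2, its slow-fibre and cardiac relative, was at 23.6 to 44.5 RPKM in EAE-induced mice and 21.9 to 28.6 RPKM in Ctrl mice and was not called (0.34, SE 0.16, adjusted p = 0.0813). The ratio of CASQ2 to CASQ1 had a median of 1.11% in Ctrl, 1.36% in OVA-immunized and 3.77% in EAE-induced mice. It differed from Ctrl (log2 difference 1.58, exact permutation p = 0.00794, adjusted p = 0.0317), and against OVA it missed the threshold after adjustment (1.11, exact permutation p = 0.0238, adjusted p = 0.0586).

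Parvalbumin (PVALB), the cytosolic calcium buffer of fast fibres, had the largest decrease of the 10 genes. Its levels on day 14 were 22473, 14973, 11176, 15589 and 10462 RPKM in Ctrl mice, 18917, 8686, 8456, 10268 and 11305 RPKM in OVA-immunized mice, and 6521, 3161, 7002, 5343 and 4820.4 RPKM in EAE-induced mice. The groups did not overlap, although replicate 1 of both control groups stood well above the other 4 mice. PVALB was 2.78-fold lower than in Ctrl (log2 fold change -1.47, SE 0.27, adjusted p = 0.000431 by limma) and 2.13-fold lower than in OVA-immunized mice (-1.09, SE 0.27, adjusted p = 0.00463). By group means, ATP2A1 (9991 ± 2006 RPKM, SD, n = 5) stood above PVALB (5369 ± 1514 RPKM) in EAE-induced mice, the reverse of the order in Ctrl mice. By mouse the order was mixed in both control groups. The ratio of PVALB to ATP2A1 was 0.883 to 2.28 in Ctrl mice (median 1.42) and 0.772 to 2.19 in OVA-immunized mice (median 0.852). In EAE-induced mice it was 0.327 to 0.931 (median 0.497). The log2 ratio of PVALB to ATP2A1 was lower by 1.38 than in Ctrl (-1.38, exact permutation p = 0.0159, adjusted p = 0.0476), and the difference from OVA of -1.02 missed the threshold after adjustment (exact permutation p = 0.0317, adjusted p = 0.0586).

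Because CASQ1 and PVALB fell while ATP2A1 was not called, the 250 bases before the RefSeq transcription start of these genes (GRCm38.p6) are shown, each on the minus strand. Of the 10 genes, 7 matched the promoter table: ATP2A1, RYR1, CASQ1, CASQ2, PVALB, CACNA1S and JPH2, and PVALB and JPH2 have 2 starts each, of which the first is shown. Capitals mark matches to CANNTG (the E-box that MyoD and myogenin can bind) and to the MEF2 motif, the sequence bound by the myocyte factor MEF2, searched on both strands.
CASQ1 (chr1:172219896-172220145): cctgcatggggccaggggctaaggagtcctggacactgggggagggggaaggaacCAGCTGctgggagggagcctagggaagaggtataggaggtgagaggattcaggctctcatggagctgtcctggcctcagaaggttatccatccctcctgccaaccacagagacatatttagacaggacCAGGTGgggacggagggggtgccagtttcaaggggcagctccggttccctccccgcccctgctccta
PVALB (chr15:78206401-78206650): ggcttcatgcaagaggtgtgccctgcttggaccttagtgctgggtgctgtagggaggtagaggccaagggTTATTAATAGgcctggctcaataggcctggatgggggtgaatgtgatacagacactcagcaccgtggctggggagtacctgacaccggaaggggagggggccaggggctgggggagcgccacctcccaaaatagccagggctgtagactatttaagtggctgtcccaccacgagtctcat
ATP2A1 (chr7:126463074-126463323): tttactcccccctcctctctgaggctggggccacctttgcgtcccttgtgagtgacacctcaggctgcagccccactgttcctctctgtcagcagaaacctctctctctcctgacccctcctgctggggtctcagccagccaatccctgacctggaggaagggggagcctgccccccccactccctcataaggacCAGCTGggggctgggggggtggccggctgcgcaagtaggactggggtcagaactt
CASQ1 held 2 matches to CANNTG, and 1 of them was CAGCTG, a form that counts as CANNTG too. ATP2A1 held 1 CAGCTG, and the first PVALB window held a MEF2 match and no CANNTG. The second PVALB window, not shown, held 1 CANNTG and no MEF2 match. Of 32851 windows of this length, 66.2% held CANNTG, 13.0% CAGCTG, 2.9% the MEF2 motif and 12.4% TATAAA, which was in none of the 3 windows shown. These matches are descriptions of the letters, and binding was not measured.

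RYR1, the calcium release channel of the SR, was higher, but with a smaller margin. Ctrl mice had 149, 173, 191, 243 and 248 RPKM on day 14, OVA-immunized mice 152, 268, 251, 224 and 140.5 RPKM, and EAE-induced mice 201, 389, 375, 346 and 318 RPKM. Replicates 2 to 5 of the EAE-induced mice lay above all 10 control mice, and replicate 1 lay among them. The log2 fold change was 0.69 against Ctrl (SE 0.22, adjusted p = 0.0172 by limma) and 0.67 against OVA (SE 0.22, adjusted p = 0.0246), which is 1.61-fold and 1.59-fold, close to the threshold of 1.5. CACNA1S, the pore and voltage sensor of the L-type channel that faces RYR1, was at 138 to 179 RPKM in EAE-induced mice and 107 to 154 RPKM in Ctrl mice and was not called (0.29, SE 0.13, adjusted p = 0.0701, and 0.22, SE 0.13, adjusted p = 0.184 against OVA). The ratio of RYR1 to CACNA1S had a median of 1.58 in Ctrl, 1.53 in OVA-immunized and 2.20 in EAE-induced mice, and neither difference held after adjustment (log2 difference 0.40, exact permutation p = 0.0317, adjusted p = 0.0586, and 0.44, exact permutation p = 0.0397, adjusted p = 0.068).

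The RYR1 transcript is very long, and libraries differed in how expression depended on transcript length. In each mouse this was expressed as the slope of expression with length, relative to the other mice, in log2 units per doubling of exon length. The slope had a median of -0.104 in Ctrl, 0.015 in OVA-immunized and 0.075 in EAE-induced mice on day 14. The lowest slopes were those of replicate 1 of the Ctrl mice (-0.353) and replicates 1 (-0.298) and 5 (-0.234) of the OVA-immunized mice, which are also the mice with the lowest RYR1 levels of their groups. Among the EAE-induced mice, replicate 1 had both the lowest slope (-0.144) and the lowest RYR1 level. When the trend of each mouse with length was removed, an alternative added after the data had been seen, RYR1 had a log2 fold change of 0.26 (SE 0.09, adjusted p = 0.0192) against Ctrl and 0.39 (SE 0.09, adjusted p = 0.00188) against OVA, and was no longer called because the fold fell below 1.5. Over the alternatives the adjusted p went from 0.00187 to 0.0383 against Ctrl and from 0.00188 to 0.0519 against OVA. Against OVA, the call was also lost without replicate 1 or 5 of the OVA-immunized mice and without replicate 2 or 3 of the EAE-induced mice (log2 fold change 0.54 to 0.83 over the 10 mice left out in turn). The part of the length trend in the RYR1 difference was not tested beyond this. SLN, CASQ1 and PVALB were called with the trend removed and without any 1 mouse, in both comparisons.

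**Figure D2:**
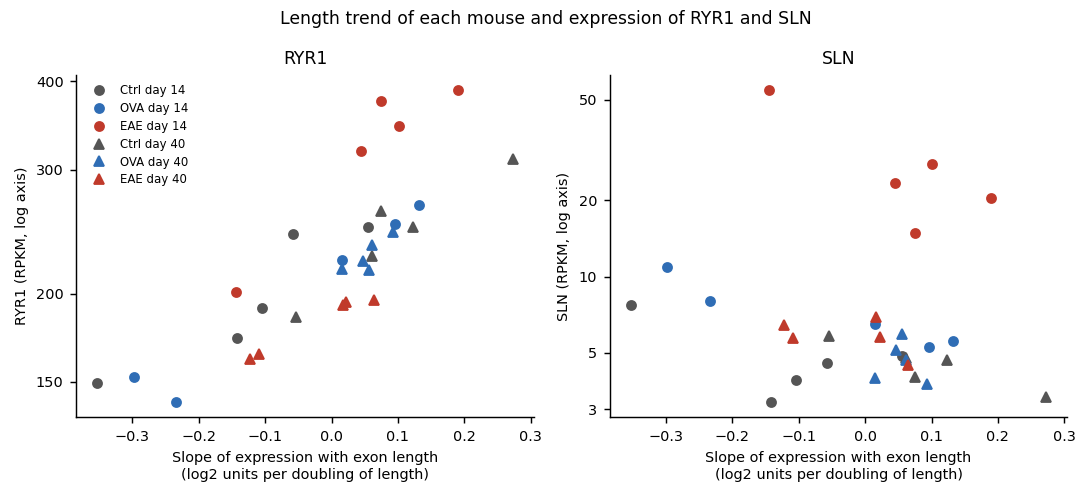
RYR1 (left) and SLN (right) in RPKM (log axes) against the slope of expression with exon length of each of the 30 mice, with circles for day 14 and triangles for day 40. RYR1 is low in the mice with the lowest slopes, at -0.353 to -0.234, whereas the 5 EAE-induced mice of day 14 lie above all others in SLN at slopes from -0.144 to 0.190.

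The junctophilins differed in opposite directions, both below the fold threshold. JPH1, which ties the SR to the transverse tubule in skeletal muscle, was at 60.2, 79.2, 78.6, 75.2 and 81.1 RPKM in Ctrl mice, 74.8, 73.1, 78.9, 76.4 and 58.8 RPKM in OVA-immunized mice, and 91.3, 88.0, 113, 118 and 84.1 RPKM in EAE-induced mice. All 5 EAE-induced mice exceeded all controls, with a log2 fold change of 0.40 (SE 0.12, adjusted p = 0.016 by limma) against Ctrl and 0.44 (SE 0.12, adjusted p = 0.0107) against OVA. The adjusted p of JPH1 by limma was not below 0.05 under every alternative. It went from 0.00206 to 0.114 against Ctrl (log2 fold change 0.27 to 0.40) and from 0.000918 to 0.104 against OVA (0.34 to 0.44). JPH2, the other junctophilin and the main one of the heart, was at 289, 277, 248, 313 and 272 RPKM in Ctrl mice and at 187, 148, 273, 213 and 177 RPKM in EAE-induced mice. There replicate 3 of the EAE-induced mice overlapped the controls, and the log2 fold change was -0.51 (SE 0.14, adjusted p = 0.00704 by limma) against Ctrl and -0.39 (SE 0.14, adjusted p = 0.0373) against OVA. Against OVA, the adjusted p of JPH2 by limma went from 0.00323 to 0.0805 over the alternatives. Against Ctrl, JPH2 passed the fold threshold with the length trend removed (-0.60, adjusted p = 0.00307, over the alternatives 0.000167 to 0.0183) and without replicate 3 of the EAE-induced mice (-0.63). The ratio of JPH2 to JPH1 fell to a median of 2.05 after EAE induction, from 3.50 in Ctrl and 3.53 in OVA-immunized mice, with no overlap (log2 difference -0.91 and -0.83, exact permutation p = 0.00794 and adjusted p = 0.0317 for each).

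The SERCA pumps were not called. ATP2A1 was at 9849.9, 10124, 9833, 10962 and 11848 RPKM in Ctrl mice on day 14, at 8620.0, 10929, 10948, 12055 and 9147 RPKM in OVA-immunized mice, and at 7004, 9668, 12543, 10742 and 9998 RPKM in EAE-induced mice. The EAE-induced group held both the lowest and the highest of the 15 mice, and the log2 fold change was -0.10 (SE 0.16, adjusted p = 0.626 by limma) against Ctrl. This sign was not stable, with values from -0.13 to 0.30 under the alternatives. ATP2A2 ranged from 67.6 to 108 RPKM in EAE-induced mice and from 55.7 to 104 RPKM in Ctrl mice (log2 fold change 0.02, SE 0.22, adjusted p = 0.958). No difference in the ratio of ATP2A2 to ATP2A1 was detected in the 4 comparisons with EAE-induced mice (exact permutation p from 0.341 to 0.817, adjusted p from 0.441 to 0.817).

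**Figure D3:**
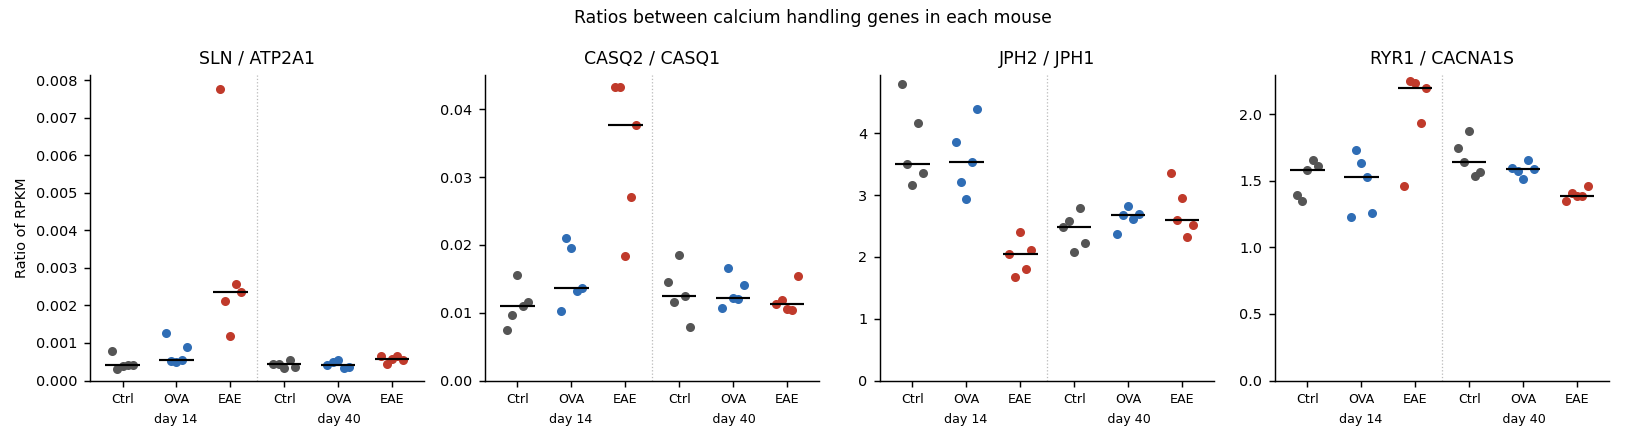
Ratios of RPKM between SLN and ATP2A1, CASQ2 and CASQ1, JPH2 and JPH1, and RYR1 and CACNA1S in each mouse (linear axes from 0), with 1 point a mouse and a line at the median of each group of 5. On day 14 the EAE-induced mice have a JPH2 to JPH1 ratio of at most 2.41, below the lowest OVA-immunized mouse at 2.93, and on day 40 a RYR1 to CACNA1S ratio of at most 1.46, below the lowest OVA-immunized mouse at 1.51.

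On day 40, none of the 10 genes was called in EAE vs. Ctrl (0.46% of 8691 genes called), EAE vs. OVA (0.209% of 8598) or OVA vs. Ctrl (0.0% of 8706). The limma tests of all genes gave unadjusted p values below 0.05 for 2423, 1500 and 272 genes in these comparisons, among them RYR1 and SLN in both comparisons with EAE-induced mice. SLN had returned to 6.47, 4.50, 5.72, 6.93 and 5.78 RPKM in EAE-induced mice, beside 3.36 to 5.83 RPKM in Ctrl and 3.78 to 5.92 RPKM in OVA-immunized mice. These groups overlapped, with a log2 fold change of 0.38 (SE 0.15, unadjusted p = 0.0239, adjusted p = 0.128) against Ctrl and 0.32 (SE 0.15, unadjusted p = 0.0499, adjusted p = 0.286) against OVA. CASQ1 was at 2235, 1933, 2298, 2250.5 and 2106 RPKM and PVALB at 12892, 9755, 13632, 12855 and 13269 RPKM in EAE-induced mice. The control mice had 1635 to 2140.3 RPKM and 8736 to 13348 RPKM. Replicates 1, 3 and 4 of the EAE-induced mice lay above all control mice in CASQ1, and replicate 3 in PVALB. The log2 fold changes of CASQ1 and PVALB against Ctrl were 0.15 (SE 0.07, adjusted p = 0.195) and 0.19 (SE 0.11, adjusted p = 0.257).

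RYR1 differed in the other direction on day 40. It was at 162, 196, 164, 193 and 195 RPKM in EAE-induced mice, 249, 227, 310.2, 185 and 262 RPKM in Ctrl mice, and 235, 223, 216, 245 and 217 RPKM after OVA. Every EAE-induced mouse was below all OVA-immunized mice, as was also the case for ATP2A1 (10009 to 10539 RPKM against 10648 to 11112 RPKM), and 5.87% of all genes tested did not overlap in this comparison. Against Ctrl, where no gene of the 10 was free of overlap (5.22% of all genes), the log2 fold change of RYR1 was -0.42 (SE 0.11, adjusted p = 0.0468 by limma), below the fold threshold, and against OVA it was -0.32 (SE 0.11, adjusted p = 0.152). With the length trend removed these became -0.14 (SE 0.05, adjusted p = 0.142) and -0.13 (SE 0.05, adjusted p = 0.199). The ratio of RYR1 to CACNA1S had a median of 1.39 in EAE-induced mice, 1.64 in Ctrl and 1.59 in OVA-immunized mice, and was lower in all EAE-induced mice than in all mice of either control group (log2 difference -0.26 and -0.18, exact permutation p = 0.00794 and adjusted p = 0.0317 for each). RYR1 and CACNA1S differ in exon length (15445 and 6411 bases), and this ratio was not tested with the length trend removed.

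**Figure D4:**
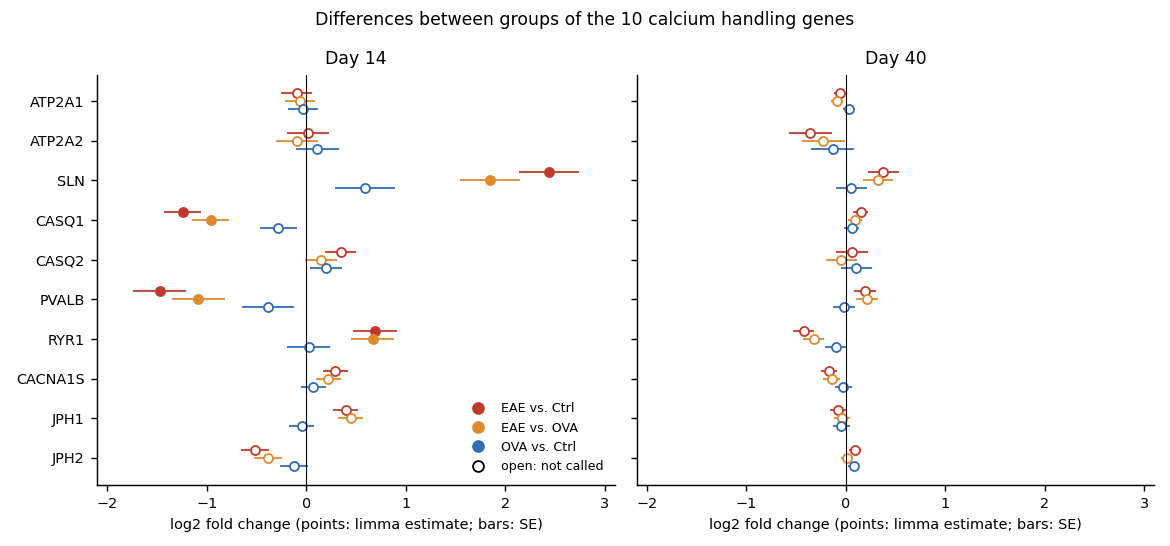
Log2 fold changes of the 10 genes in the 3 comparisons of treatments on day 14 (left) and day 40 (right), with points for limma estimates, bars for their SE and filled points for called genes. Filled points appear for SLN, CASQ1, PVALB and RYR1 on day 14, where SLN reaches 2.43, and for no gene on day 40.

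The differences between EAE-induced and control mice themselves changed from day 14 to day 40. In an interaction test over all 30 mice, 5 of the 10 genes were called for the change of EAE vs. Ctrl (32.7% of 9013 genes) and 4 for the change of EAE vs. OVA (21.8% of 8935). Against Ctrl, the log2 fold change went down by 2.06 for SLN (-2.06, SE 0.35, adjusted p = 5.22e-05 by limma) and by 1.11 for RYR1 (-1.11, SE 0.25, adjusted p = 0.000905), and up by 1.66 for PVALB (SE 0.30, adjusted p = 8.39e-05), 1.39 for CASQ1 (SE 0.20, adjusted p = 5.85e-06) and 0.60 for JPH2 (SE 0.15, adjusted p = 0.00175). Relative to the median change of all genes (-0.15), these were -1.91, -0.96, 1.82, 1.54 and 0.75. JPH2 lost its call under quantile normalization and in 5 of 20 fits that left out 1 mouse, namely replicate 4 of Ctrl or replicates 2 or 5 of EAE on day 14, and replicate 3 of Ctrl or replicate 1 of EAE on day 40 (0.50 to 0.72), and RYR1 lost its call with the length trend removed, against Ctrl (-0.42) as well as for the change of EAE vs. OVA (-0.54). For the change of OVA vs. Ctrl, 0 of the 10 genes and 0.0% of 8848 genes were called, with 823 genes at an unadjusted p below 0.05 by limma. Between days within a group, SLN and RYR1 were lower and CASQ1 and PVALB higher on day 40 in EAE-induced mice (21.1% of 8709 genes called), with log2 fold changes of -2.11 (SE 0.25), -0.81 (SE 0.18), 1.15 (SE 0.14) and 1.26 (SE 0.21) and a largest adjusted p of 0.000496 by limma. None of the 10 was called between days in Ctrl (9.37% of 8788 genes) or OVA-immunized mice (3.97% of 8648), where JPH1 and JPH2 (Ctrl) and JPH1 and SLN (OVA) had an unadjusted p below 0.05. In Ctrl mice, JPH2 was lower on day 40 (-0.37, SE 0.10, adjusted p = 0.0127 by limma) without reaching the fold threshold. Days were compared between different mice, and whether the libraries of both days were made together was not given in the sources used here.

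Of the other genes of excitation-contraction coupling and SR calcium, a list of 44 of which 43 were found, 6 of 35 tested were higher and 2 lower in EAE vs. Ctrl on day 14, and 6 of 36 were higher and 0 lower in EAE vs. OVA. Called higher genes made up 14.6% and 11.0%, and called lower genes 11.8% and 9.28%, of all genes tested in these comparisons. The median log2 fold change of the list was 0.03 and -0.01, beside 0.11 for all genes tested in each. None of 35 was called in the OVA vs. Ctrl comparison of day 14 or in any comparison of day 40. For the change of EAE vs. Ctrl between the days, 4 of 36 were higher and 8 lower (11.7% and 20.9% of all genes), and for that of EAE vs. OVA 2 were higher and 7 lower (8.16% and 13.7%).

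The higher genes had different parts in the pathway. CACNG1, a subunit of the same L-type channel as CACNA1S, was at 129 to 217 RPKM in Ctrl mice and 278 to 502 RPKM in EAE-induced mice (log2 fold change 1.30, SE 0.16, adjusted p = 1.88e-05 by limma). TMEM38B, a potassium channel of the SR that balances charge during calcium release, was at 14.3 to 22.5 RPKM in Ctrl mice and 39.7 to 65.7 RPKM in EAE-induced mice (1.37, SE 0.15, adjusted p = 6.4e-06). Among calcium-dependent kinases, CAMK2D had a log2 fold change of 1.03 (SE 0.13, adjusted p = 2.41e-05) and CAMK2B of 0.93 (SE 0.10, adjusted p = 4.41e-06), both by limma against Ctrl. CAMK2A, in contrast, was at 39.0 to 68.1 RPKM in EAE-induced and 70.7 to 84.3 RPKM in Ctrl mice (-0.59, SE 0.17, adjusted p = 0.0084), and HRC, a calcium-binding protein of the SR lumen as CASQ1 is, at 395 to 584 RPKM and 681 to 813 RPKM (-0.60, SE 0.12, adjusted p = 0.000863). Against OVA, HRC (-0.57, SE 0.12, adjusted p = 0.0016) and CAMK2A (-0.47, SE 0.17, adjusted p = 0.0332) stayed below the fold threshold.

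The peptides related in function to SLN did not follow it closely. PLN, which inhibits SERCA until it is phosphorylated, was at 1.98 ± 0.330 RPKM (SD, n = 5) in Ctrl and 3.27 ± 0.462 RPKM in EAE-induced mice (log2 fold change 0.70, SE 0.17, adjusted p = 0.00344 by limma). It passed the filter of 3 RPKM only through the EAE-induced mice, and its call therefore adds nothing to the count of higher genes as support. MRLN was at 46.2 to 113 RPKM in Ctrl mice and 48.0 to 82.8 RPKM in EAE-induced mice and was not called (-0.30, SE 0.30, adjusted p = 0.436). By mean RPKM, MRLN was more abundant than SLN in these groups and PLN less abundant. STRIT1 was not found by symbol in the table.

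Some markers of other states and cell types also differed in EAE vs. Ctrl on day 14. In that comparison 14.6% of all genes tested were called higher and 11.8% lower, with a median log2 fold change of 0.11. The summed level of 6 genes of denervated fibres, including the acetylcholine receptor gene CHRNA1 and myogenin (MYOG), was 167 to 509 RPKM in EAE-induced mice and 32.3 to 72.5 RPKM in Ctrl mice, and CHRNA1 and MYOG were called higher. CHRNG was also called higher but passed the filter of 3 RPKM only through the EAE-induced mice, so it adds no support. Of 9 slow-fibre genes, 4 were called lower and 0 higher (median -0.38, summed level 1189 to 2004 RPKM in EAE-induced and 1870.2 to 3150 RPKM in Ctrl mice). Of 10 fast-fibre genes, 1 was called lower and 0 higher (median -0.23, summed level 44641 to 63241 RPKM and 59138 to 89626 RPKM). Fibroblast and tendon (3 of 4, median -1.11) and endothelial markers (1 of 4, median -0.09) were called lower, as were 2 of the 3 macrophage and 2 of the 2 erythrocyte markers that passed the filter in both groups. ADGRE1 (macrophages) and ALAS2 (erythrocytes), also called lower, passed it only through the Ctrl mice. None of 3 adipocyte markers, of which PLIN1 passed only through the Ctrl mice, and none of 3 smooth muscle markers (median 0.11) was called, no neuronal marker passed the filter, and the 1 cardiac marker tested, TNNT2, was called higher (0.71). In EAE vs. OVA on day 14 the counts differed for 2 lists, with 2 of 4 fibroblast and tendon and 1 of 3 smooth muscle markers called lower (medians -0.94 and -0.51). There 11.0% of all genes tested were called higher and 9.28% lower. The part of these cells and states in the differences of the 10 genes was not tested, and in whole muscle fewer cells of a type and less RNA per cell cannot be told apart.

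As a description of likeness, the genes other than the 10 with the highest Pearson r to each of them over the 30 mice, on the log2 scale, were listed without a test, since mice of a group share their treatment and libraries share length trends. SLN was most like PSMD8 (r = 0.938), a proteasome subunit, MAP1LC3A (0.936), an autophagosome protein, and the cell cycle inhibitor CDKN1A (0.935). PVALB was most like TPM1 (0.963), TCEA3 (0.947) and CIB2 (0.945), and CASQ1 most like FAM131A (0.962), SLC37A4 (0.961) and SH3BGR (0.959). RYR1 was most like DYNC1H1 (0.962), SNRNP200 (0.96) and SPEG (0.955), the last also on the list of other SR and calcium genes, and CACNA1S like WDR7 (0.925), TLN2 (0.921) and PRRC2B (0.92). ATP2A2 was closest to the slow and cardiac myosins MYH7 (0.895) and MYH6 (0.814) and to FAM120B (0.797), and CASQ2 to TSPAN9 (0.845), the Z-disc protein ACTN2 (0.763) and LMCD1 (0.739). JPH1 was most like EGF (0.858), BC003331 (0.85) and PHKA1 (0.833), JPH2 like ABHD8 (0.865), MPND (0.849) and Cxx1c (0.847), and ATP2A1 like PCNT (0.829), FOXJ2 (0.819) and RERE (0.804). Among the 10 genes themselves, the highest values were those of CASQ1 with PVALB (0.95) and of RYR1 with CACNA1S (0.92), and the lowest that of RYR1 with PVALB (-0.79).

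Paralogues share sequence, and how reads with several matches were counted was not given in the sources used here. The longest stretch of identical coding sequence was 44 bases for ATP2A1 and ATP2A2, 25 for CASQ1 and CASQ2 and 35 for JPH1 and JPH2. RYR1 shared at most 35 bases with RYR2 and 30 with RYR3.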

How the data were processed

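RNA-Seq of EDL muscle was analysed for 30 mice, 5 per group, grouped by the sample labels. The authors prepared poly(A) libraries with a directional kit, used Subread for alignment of read pairs to mm10 and featureCounts for counting over RefSeq transcripts, and then derived RPKM. The deposited values were log2(RPKM + 1): the scale was read from the values, since RPKM times exon length summed to 1.11M to 1.14M a mouse on this scale and to 0.123M to 0.145M if the values were taken as RPKM. A value of 0.0001 stood for no read (25.8% of values). Values were converted back to RPKM. The authors tested counts with edgeR, whereas counts were not used here.

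Every gene whose mean passed 3 RPKM in 1 or more of the compared groups was fitted with limma 3.58.1 (R 4.3.3, lmFit, eBayes with trend) on log2(RPKM + 0.1). The 15 mice of 1 day shared a model, and all 30 mice entered that for the interaction and for comparisons between days. A call needed an adjusted p (Benjamini-Hochberg, all genes tested) below 0.05 and more than a 1.5-fold difference. This model and the permutation test were tested on simulated data. Ratios of 2 genes were compared by two-sided exact permutation tests (scipy 1.17.1) of the log2 ratio, 5 against 5, adjusted over 24 tests of 6 ratios. The smallest exact p was 0.00794.

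Named genes were the 10 members, genes called from a list of other SR and calcium genes (1 of them is not reported here), PLN, MRLN and STRIT1, and for each member the 3 most alike genes. Marker lists covered fast, slow and denervated fibres, cardiac and smooth muscle, neurons, endothelium, macrophages, adipocytes, fibroblasts and tendon, and erythrocytes. The members and lists were chosen with earlier results of these data known. Exon lengths were available for 95.1% of genes, and the slope of expression with length was estimated for each mouse. Depth was estimated at 17.9M to 31.4M reads a mouse. Alternatives varied the pseudocount, filter, scaling, variance model, samples in the fit, replicate block and fold threshold, left out each mouse in turn, and removed the length trend, the last added after the data had been seen. The length trend was not removed from the ratios. The labels number the replicates but name no batch, litter or cage, so p values measure the spread between these mice.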

Additional observations from a re-analysis of the deposited data

Results flagged for a closer look

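Among 60 groups of 5 mice (10 genes in 6 groups), 5 held a mouse far from the other 4, by a gap above 0.71 of the range of the group, where chance gives about 1 in 20, or 3. These were CASQ2 in EAE-induced mice on day 40 (32.6 RPKM in replicate 5), PVALB in OVA-immunized mice on day 14 (18917 RPKM in replicate 1) and in EAE-induced mice on day 40 (9755 RPKM in replicate 2), and JPH1 on day 14 in Ctrl mice (60.2 RPKM in replicate 1) and in OVA-immunized mice (58.8 RPKM in replicate 5). The high PVALB and low JPH1 mice of day 14 are those with the 3 lowest slopes of expression with exon length of all mice (-0.353, -0.298 and -0.234), and the part of this trend was not tested.

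The effect of EAE induction differed between the days in an interaction test by limma for 5 genes against Ctrl, with log2 changes of -2.06 (SLN), -1.11 (RYR1), 1.66 (PVALB), 1.39 (CASQ1) and 0.60 (JPH2), and for 4 against OVA, with -1.53 (SLN, adjusted p = 0.00154), -0.99 (RYR1, adjusted p = 0.0034), 1.30 (PVALB, adjusted p = 0.00137) and 1.05 (CASQ1, adjusted p = 0.000229). With the length trend removed, the RYR1 changes were -0.42 and -0.54 and were no longer called.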

How the results depend on the processing

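The number of the 10 genes called was 4 in EAE vs. Ctrl and in EAE vs. OVA on day 14, and with a replicate block, which adds the replicate number of the labels to the fit, it was again 4 and 4, with 0 on day 40. The labels do not say whether the numbers pair the mice, and this was not tested. Deviations of mice with the same number correlated from -0.71 to 0.69. Medians for pairs of groups ranged from -0.17 to 0.24, highest for OVA-immunized with EAE-induced mice on day 14. On day 14, replicate 1 had the highest SLN level of each treatment group. It also had the lowest slope of expression with exon length (-0.353 in Ctrl, -0.298 in OVA-immunized and -0.144 in EAE-induced mice). No call of the 10 genes changed under the block. Without the fold-change threshold, 1 gene (RYR1) was called in EAE vs. Ctrl on day 40 and 1 (JPH2) between days in Ctrl mice, beside 0 with it, and 6 in each EAE comparison on day 14, with JPH1 and JPH2 added. RYR1 lost its call on day 14 with the length trend removed (log2 fold change 0.26 and 0.39) and, against OVA, under quantile normalization (0.76, adjusted p = 0.0519). Against OVA the call of RYR1 also depended on single mice.

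With 1 mouse left out, 4 against 5 mice raise the smallest possible p, and ratios crossed the threshold in both directions. On day 14 the log2 differences against Ctrl were 1.45 to 1.79 (CASQ2/CASQ1), 2.14 to 2.81 (SLN/ATP2A1), -0.98 to -0.82 (JPH2/JPH1), -1.58 to -1.19 (PVALB/ATP2A1) and 0.35 to 0.51 (RYR1/CACNA1S), and against OVA 0.97 to 1.31, 1.52 to 2.19, -0.90 to -0.76, -1.23 to -0.77 and 0.38 to 0.56. On day 40, SLN/ATP2A1 was 0.37 to 0.54 against Ctrl and PVALB/ATP2A1 0.26 to 0.38 against OVA. Ratios lost an adjusted p below 0.05 in 44 fits with 1 mouse left out or pseudocount 1 RPKM, and gained it in 6.

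Over all genes, called counts on day 40 moved both ways: 40 in EAE vs. Ctrl (6 higher), 229 without the fold-change threshold, 202 without Ctrl replicate 4, 19 and 7 without Ctrl replicates 1 and 3, 21 without Ctrl replicate 5, 1 without EAE replicate 3, 21 with median-of-ratios scaling (10 higher), 8 with quantile normalization, 1 with the replicate block and 0 with all 30 mice in 1 model, and 18 in EAE vs. OVA, which became 2, 1, 0 and 1 under the last 4 of these, 55 without the fold-change threshold, and 2 or 3 without any 1 of OVA replicates 3 to 5 or EAE replicates 2 to 5. A pseudocount of 1 RPKM gave 15 and 8 genes, a filter at 10 RPKM 8 and 2, no filter 55 and 3, and a fit of only the compared groups 6 and 14. On day 14, 2318 genes in EAE vs. Ctrl became 3578 with no filter, 1409 with a filter at 10 RPKM and 4195 without the fold-change threshold, and 1762 in EAE vs. OVA became 2454, 1171 and 3390.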
